A study of Mus musculus with 12 samples.

Results

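Neutrophils were rare in the stromal vascular fraction (SVF) of epididymal (eWAT) and inguinal (iWAT) white adipose tissue. A barcode was counted as a neutrophil when it held at least 10 UMIs (unique molecular identifiers, one per captured transcript) of S100a8 and S100a9 together, at least 1 UMI of Csf3r, Cxcr2 or Retnlg, and no UMI of Adgre1 (the macrophage antigen F4/80), Pdgfra (a marker of adipocyte progenitors) or the Cd3 genes of T cells. The rule gave 159 neutrophils among 126095 kept cells, which were barcodes of 700 to 22000 UMIs with 200 to 6000 detected genes and a mitochondrial share below 25%, out of 139755 deposited barcodes of 12 libraries. Neutrophils thus made up 0.126% of kept cells (exact 95% binomial interval 0.107 to 0.147, which covers counting error only).

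Neutrophils are short-lived granulocytes made in the bone marrow and released into blood. They leave the vessels after chemokine and leukotriene signals, carry preformed granules of proteases and antimicrobial proteins that are loaded in order as the cell matures, and kill by phagocytosis and by the oxygen radicals of the NADPH oxidase. In adipose tissue they are known as early arrivals when fat expands, and as a source of interleukin-1 beta and elastase.

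The study treated mice with the PPARγ agonist rosiglitazone (Rosi) or vehicle (Veh) and sequenced the SVF of each depot on the 10x Genomics 3′ platform. All mice were male and 12 weeks old. WT-Veh mice were C57BL/6J given vehicle (diluted methylcellulose), ob/ob-Veh mice were Lepob/Lepob, which lack leptin, given vehicle, and ob/ob-Rosi mice were Lepob/Lepob given 30 mg/kg Rosi, in every case by oral gavage morning and evening for 3 days. Each of the 6 combinations of depot and condition had 2 libraries, labelled as biological replicates, and the labels do not say which eWAT and iWAT libraries came from the same mouse. The cells were freed with collagenase, floating adipocytes were discarded and red cells were lysed, and no step of the protocol separates blood neutrophils from those of the tissue, so the 2 cannot be told apart.

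The 12 libraries held 20132553 to 92475986 UMIs in deposited barcodes. 1 library stood apart in free neutrophil RNA: in iWAT WT-Veh 1, 24.9% of the other kept cells carried a UMI of S100a8 or S100a9, against 0.481% to 4.47% in the other 11 libraries. Pairs of libraries shared 7 to 99 barcodes among kept cells, and 5 neutrophil barcodes recurred in another library, 0 of them as a neutrophil in both. The transcript Gm42418, which overlaps a ribosomal RNA repeat, took 5.01% to 9.72% of neutrophil UMIs in every replicate 1 library with neutrophils and 0.104% to 0.669% in those of replicate 2, and the other kept cells of the same libraries split in the same way, 2.91% to 8.06% against 0.116% to 2.29%.

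The genes of the rule describe the members and are not a finding. S100a8 and S100a9, the calcium-binding pair calprotectin that fills the neutrophil cytosol, stood at 18578 and 22314 CPM (UMIs of the gene per 1000000 UMIs of all genes) over all neutrophils pooled, against 11.6 and 11.1 CPM in the other kept cells. Retnlg, a resistin-like secreted protein, stood at 9484 CPM and was seen in 148 of the 159 cells. Csf3r, the receptor of granulocyte colony-stimulating factor, was at 1422 CPM in 126 cells, and Cxcr2, the receptor through which CXCL1 and CXCL2 draw neutrophils into tissue, was at 845 CPM in 92 cells. The neutrophils held 10 to 296 S100a8 and S100a9 UMIs each, with a median of 37, and 74 of them had fewer than 1000 UMIs in all.

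Marker genes of the lineage outside the rule were present as the name implies. Hdc, which makes histamine, was at 1178 CPM in neutrophils and 4.38 CPM in the other kept cells. Trem1, an amplifier of inflammatory signalling, was at 732 against 1.88 CPM, and Mmp8, the neutrophil collagenase, at 544 against 0.741 CPM. All 13 neutrophil markers listed beside the rule had UMIs in the members, and they summed to 14087 CPM against 2396 CPM in 29921 macrophages, chosen by their UMIs of Adgre1 and C1q genes. Ly6g, the antigen of the standard neutrophil antibody, was low, with 25 UMIs in 16 cells. All 4 eosinophil genes of the list, Siglecf, Epx, Prg2 and Ear1, had no UMI in any member. Of 4 B cell genes 3 had UMIs, with Ighm in 31 members and Cd79a at 0, of 5 dendritic cell genes 4 had UMIs, with H2-Ab1 in 35 members and Flt3 at 0, and of 5 mast cell and basophil genes 3 had UMIs, in 1 or 2 members each. The lists summed to 197 CPM (B cell), 568 CPM (dendritic cell) and 23.5 CPM (mast cell and basophil) in neutrophils and to 324, 1625 and 19.4 CPM in the other kept cells. Because every gene of these cells bears on how they were picked, the levels are given without a test.

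The 20 genes with the largest ratio of CPM in neutrophils to CPM in the other kept cells, at 200 CPM or more, included the 5 rule genes and 15 others. The largest ratio was that of Stfa2l1, a stefin-like protease inhibitor, at 488 against 0.188 CPM, followed below Retnlg by the related Gm5483 at 502 against 0.213 CPM. Both have near-identical copies, so the counting could split their UMIs between copies. Asprv1, an aspartic protease, reached 418 CPM, Wfdc21, a small secreted inhibitor, 605 CPM, and Arg2, a mitochondrial arginase, 230 CPM. Acod1, which makes itaconate, was at 385 CPM, Hcar2, the receptor for niacin and beta-hydroxybutyrate, at 535 CPM, and Cd300lf, an inhibitory receptor, at 408 CPM. Rdh12, a retinol dehydrogenase, closed the list at 277 against 2.02 CPM. Ltf, Ngp and Camp were also among the 20, but nearly all of their UMIs came from 2 cells, as described with the granule genes.

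At the edge of the rule, the 19 neutrophils with 10 to 14 S100a8 and S100a9 UMIs and the 38 barcodes with 5 to 9 that met every other condition held many of the same transcripts. Hdc was at 721 CPM just inside and 783 CPM just outside, and Trem1 at 847 and 665 CPM. Csf3r, at 1035 and 1139 CPM, is part of a condition that both sets had to meet. Of 221 kept cells with 10 or more S100a8 and S100a9 UMIs, 8 had no UMI of Csf3r, Cxcr2 or Retnlg, while 25 of those with one also carried Adgre1, 16 Pdgfra and 16 a Cd3 gene. The minimum of 700 UMIs left out the most barcodes in eWAT WT-Veh 1, which had 38 further barcodes of 500 or more but fewer than 700 UMIs that met the rest of the rule, against 0 to 8 in each of the other 11. Among these, eWAT ob/ob-Rosi 2 had 8 beside its 5 members. The deposited barcodes of iWAT WT-Veh 1 began at 682 UMIs and those of the others at 500.

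**Figure D1:**
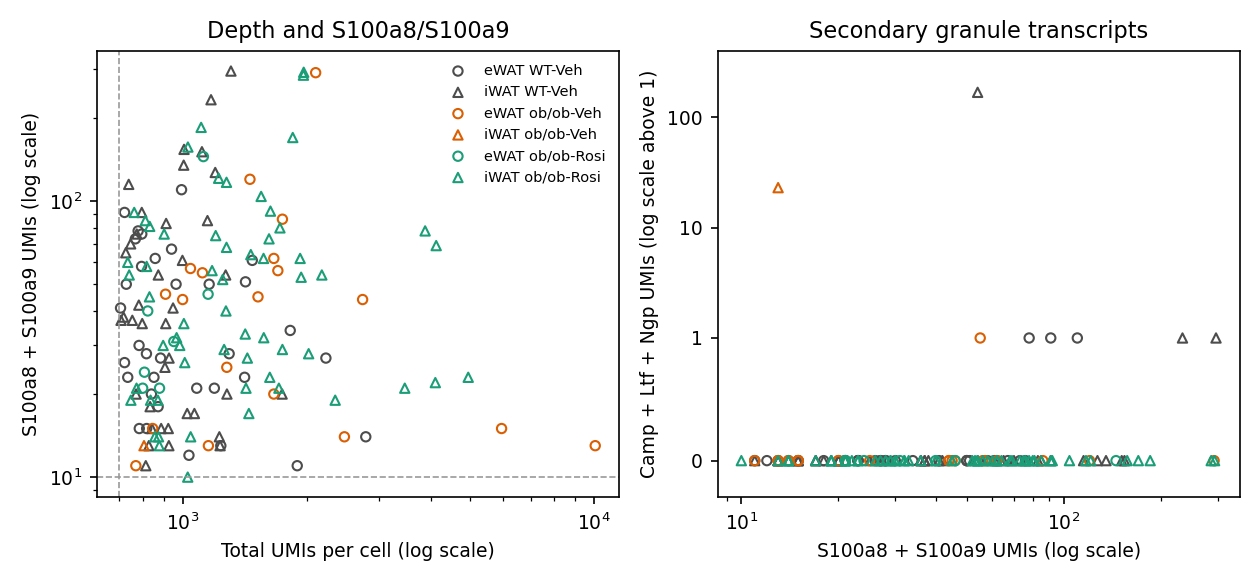
Each symbol is 1 of the 159 neutrophils, coloured by condition and shaped by depot (circles eWAT, triangles iWAT). The left panel plots S100a8 and S100a9 UMIs against all UMIs of the cell on log axes, with the limits of 10 and 700 dashed, and 74 cells have fewer than 1000 UMIs. The right panel plots the UMIs of Camp, Ltf and Ngp against those of S100a8 and S100a9, and only 2 cells lie above 1 UMI.

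The first question was whether neutrophil numbers differed with genotype, treatment or depot. In eWAT, the share of kept cells was 0.183% and 0.108% in the 2 WT-Veh libraries (27 and 7 cells) and 0.142% and 0.0774% in ob/ob-Veh (13 and 6 cells), and these groups overlap. It was 0.0212% and 0.0497% in ob/ob-Rosi (2 and 5 cells), below every other eWAT library at the minimum of 700 UMIs but not without it, where eWAT ob/ob-Rosi 2 had 0.115% (13 cells), above ob/ob-Veh 2 (0.0863%) and WT-Veh 2 (0.104%). In iWAT, WT-Veh libraries had 0.0762% and 0.264% (13 and 26 cells). The ob/ob-Veh libraries had 1 neutrophil of 7205 kept cells (0.0139%) and 0 of 7203, which allows a share of up to 0.0416% at a floor of 3 cells (exact 95% upper limit 0.0512%). The ob/ob-Rosi libraries had 0.393% and 0.12% (38 and 21 cells), so no iWAT ob/ob-Veh library reached the share of any WT-Veh or ob/ob-Rosi library.

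Pooled over the 2 libraries of each group, the iWAT share in ob/ob-Rosi was 31.3 times that in ob/ob-Veh, with an exact 95% counting interval of 5.40 to 1256 over a single ob/ob-Veh cell. The ratio was 9.15 (3.42 to 34.5) at an S100a8 and S100a9 minimum of 5. It was 19.7 (5.25 to 166) with the minimum of 700 UMIs and both upper limits lifted, and 26.4 (4.56 to 1061) with kept cells holding a Ptprc UMI as the denominator. In eWAT the same ratio was 0.319 (0.113 to 0.794), in the opposite direction. With the minimum of 700 UMIs and both upper limits lifted it was 0.679 (0.334 to 1.36), an interval that holds 1. So do those at an S100a8 and S100a9 minimum of 5 (0.477, 0.206 to 1.04) and of 20 (0.467, 0.158 to 1.26). At a Csf3r, Cxcr2 and Retnlg minimum of 2 the ratio stayed at 0.319 (0.113 to 0.794). With kept cells holding a Ptprc UMI as the denominator it was 0.257 (0.0914 to 0.639). These intervals cover counting error only and leave out the spread between mice. The mean share ± SD (n = 2) was 0.146% ± 0.0532 in eWAT WT-Veh, 0.110% ± 0.0456 in eWAT ob/ob-Veh and 0.0354% ± 0.0201 in eWAT ob/ob-Rosi. In iWAT it was 0.170% ± 0.133, 0.00694% ± 0.00981 and 0.256% ± 0.193, with wide spread between the replicates of WT-Veh and ob/ob-Rosi.

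No comparison of shares passed the test over libraries, an exact two-sided permutation test of the mean log2 share with 10 comparisons in the family. With 2 libraries against 2 the smallest p was 0.333, which the ob/ob-Veh against WT-Veh comparison in iWAT (log2 difference -3.60) and the ob/ob-Rosi against ob/ob-Veh comparisons in eWAT (-1.55) and iWAT (4.20) and ob/ob-Rosi against WT-Veh in eWAT (-1.95) all reached (exact permutation adjusted p 0.648 each). Permuting within depots over both depots, where the smallest p is 0.0556, ob/ob-Veh against WT-Veh gave -2.00 with p = 0.111 (exact permutation, adjusted p 0.648) and ob/ob-Rosi against ob/ob-Veh gave 1.33 with p = 0.389 (exact permutation, adjusted p 0.648). The depots did not separate, at a mean of 0.145% of kept cells in iWAT and 0.0970% in eWAT over 6 libraries each (log2 difference -0.23, exact permutation p = 0.815, adjusted p 0.815). The log2 difference and the difference of the means have opposite signs, and without iWAT ob/ob-Veh 2, the library with no neutrophil, the log2 difference was 0.04.

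**Figure D2:**
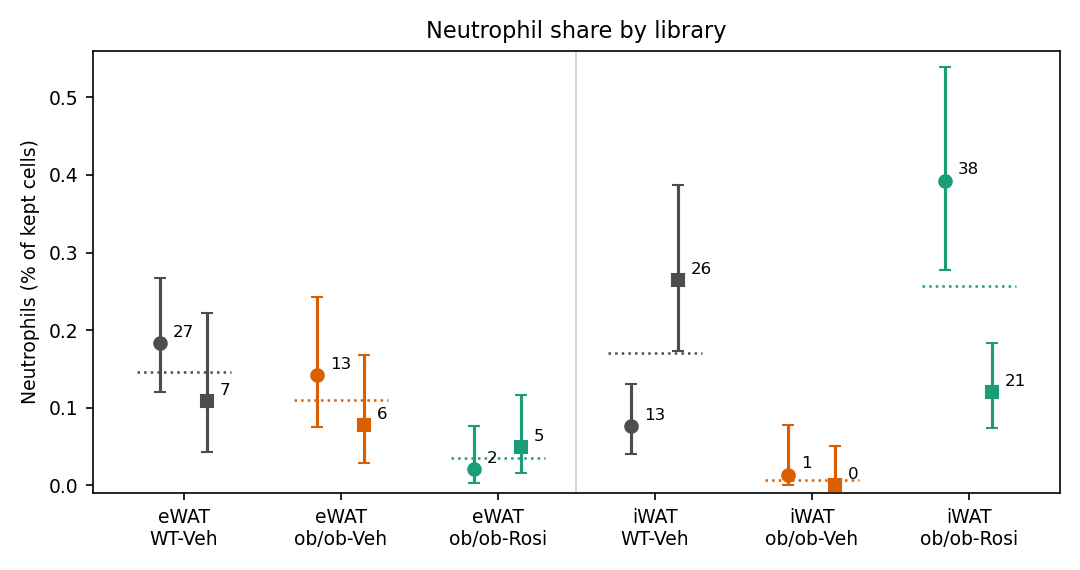
Neutrophils as a percent of kept cells in each of the 12 libraries, with the number of neutrophils beside each point, exact 95% binomial intervals as bars, and the mean of each pair dotted (circles replicate 1, squares replicate 2). The 2 iWAT ob/ob-Veh libraries lie below all others of their depot, and, at the minimum of 700 UMIs, the 2 eWAT ob/ob-Rosi libraries below all others of theirs.

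The share moved with the choice of limits in some libraries. In iWAT WT-Veh 1, the library with the most free S100a8 and S100a9 RNA, 27 cells passed at 5 UMIs, 13 at 10 and 3 at 20, whereas iWAT WT-Veh 2 had 26, 26 and 25 at the same limits. When cells with a UMI of other lineage genes (C1qa, C1qb, Dcn, Col1a1, Cdh5, Pecam1 and 6 more genes) were also removed, 21 of 159 neutrophils were left, 13 of them in iWAT WT-Veh 2 and none in 7 libraries. Most neutrophils thus held UMIs of transcripts that other cells make in abundance. The 7 macrophage markers, with Adgre1 at 0 by the rule, summed to 5570 CPM in neutrophils against 31835 CPM in macrophages, and ranged over libraries with 10 or more neutrophils from 1301 to 14138 CPM. Neutrophil depth differed between groups too, with medians of 850 to 1682 UMIs over libraries with 5 or more neutrophils. In iWAT the mean of the medians was 1192.5 UMIs in ob/ob-Rosi and 906 UMIs in WT-Veh libraries (exact permutation p = 0.333, the smallest possible). The part of free RNA and of depth in the shares was not tested.

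Granule genes came first among the readouts, since their order of expression marks maturity. Of 5 genes listed for primary granules and the promyelocytes that make them, Mpo, Elane, Ctsg and Ms4a3 had 0 UMIs in all 159 neutrophils and Prtn3 had 2 UMIs in 1 cell. Of the secondary granule transcripts, which myelocytes make, Ltf, Camp and Ngp were nearly confined to 2 of the 159 cells, which were singled out after their values were seen. Others on that list were more widely seen, with Lyz2 in 125, Lcn2 in 78, Mmp8 in 59, Chil3 in 16 and Cd177 in 5 neutrophils, while Fcnb had no UMI. Ltf (lactoferrin) had 69 UMIs, of which 53 lay in 1 neutrophil of iWAT WT-Veh 1 and 16 in the only neutrophil of iWAT ob/ob-Veh 1. The same 2 cells held 63 and 1 of the 64 UMIs of Camp (cathelicidin), and 52 and 6 of the 64 UMIs of Ngp (neutrophilic granule protein). Together they carried 191 of the 197 UMIs of the 3 genes, 6 other cells held 1 UMI each, and 151 held none. The iWAT WT-Veh 1 cell also held 29 UMIs of Chil3, a chitinase-like lectin, and 24 of Lcn2, with 0 of Csf3r and Cxcr2. In the other kept cells, Camp, Ltf and Ngp had 8.31 UMIs per 100 of S100a8 and S100a9 in iWAT WT-Veh 1 and 35.6 in iWAT ob/ob-Veh 1, against 0 to 10.7 in the remaining libraries, the highest of these in eWAT ob/ob-Veh 1.

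Genes listed as gelatinase and late granule genes were seen in every library with 10 or more neutrophils. Mmp9, the gelatinase of tertiary granules, had UMIs in 113 of 159 neutrophils and stood at 515 to 2343 CPM in the 6 libraries with 10 or more neutrophils. Slpi, an elastase inhibitor, was at 756 to 4517 CPM and Hp (haptoglobin) at 881 to 1971 CPM. Pglyrp1, which binds peptidoglycan, was at 269 to 1848 CPM. The 9 genes of the late granule list summed to 4531 to 12482.5 CPM in the neutrophils of these libraries and to 394 CPM in macrophages. The list also holds Arg2, a mitochondrial arginase, and Stfa2l1, a stefin-like inhibitor, so its sum and medians do not measure granule genes alone. Lcn2, the siderophore-binding lipocalin of the secondary granule list, was at 378 to 2570 CPM in the same libraries.

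All 12 chemoattractant and cytokine receptors of the list had UMIs in neutrophils. Il1r2, the decoy receptor for interleukin-1, stood at 1244 CPM in neutrophils and 3.40 CPM in macrophages. Ccr1 was at 666 CPM, Ptafr, the receptor of platelet-activating factor, at 422 CPM, C5ar1, for the complement fragment C5a, at 366 CPM, and the formyl peptide receptors Fpr2 and Fpr1 at 192 and 117 CPM. Among receptors for microbes and antibodies, Clec4d was at 868 CPM and Clec4e at 544 CPM, Cd14 at 422 CPM and Tlr2 at 122 CPM, while Tlr4 had 10 UMIs in 9 cells. Of the adhesion genes, Cd44 was at 953 CPM, Selplg at 591 CPM, and the β2-integrin genes Itgb2 and Itgam at 338 and 300 CPM.

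Among cytokines, Il1b was the most abundant at 4594 CPM, in 130 of 159 neutrophils, against 168 CPM in macrophages. After thinning each cell to 700 UMIs, a UMI of Il1b was expected in 75.0% of neutrophils and 6.37% of macrophages (unthinned, 81.8% and 17.2% at median depths of 1027 and 4375 UMIs). Cxcl2, a CXCR2 ligand, was at 3163 CPM and Ccl6 at 2905 CPM, but macrophages held these at 2061 and 2632 CPM, much closer to the neutrophil levels. Of the NADPH oxidase, Cyba stood at 1042 CPM, Rac2 at 530 CPM and the catalytic subunit Cybb at 192 CPM, below its 465 CPM in macrophages. Mcl1, on which neutrophil survival depends, was at 2032 CPM, and Cebpb, a transcription factor of emergency granulopoiesis, at 3825 CPM, whereas Cebpe and Gfi1, factors of the precursor stage, had a UMI in 3 cells and 1 cell. The glucose transporter gene Slc2a3 was at 258 CPM against 3.77 CPM in macrophages. Of the genes of dividing cells, Mki67 had a UMI in 1 neutrophil, Top2a in 4 and Stmn1 in 6.

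The receptor for Rosi itself was close to undetected. Pparg had 5 UMIs in 2 of 159 neutrophils, 4 in 1 cell of iWAT ob/ob-Rosi 1 and 1 in a cell of iWAT ob/ob-Rosi 2. The lipid chaperone gene Fabp4, which endothelial cells are known to carry, was at 5260 CPM in neutrophils and 6962 CPM in the other kept cells. In eWAT ob/ob-Veh 1 it was higher in neutrophils, at 7258 against 1797 CPM, with 166 of the 173 UMIs in 1 cell. The part of other cells' RNA in these levels was not tested. Alox5ap, which leukotriene synthesis needs, was at 1262 CPM against 501 CPM in macrophages, and Alox5 at 89.2 CPM.

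**Figure D3:**
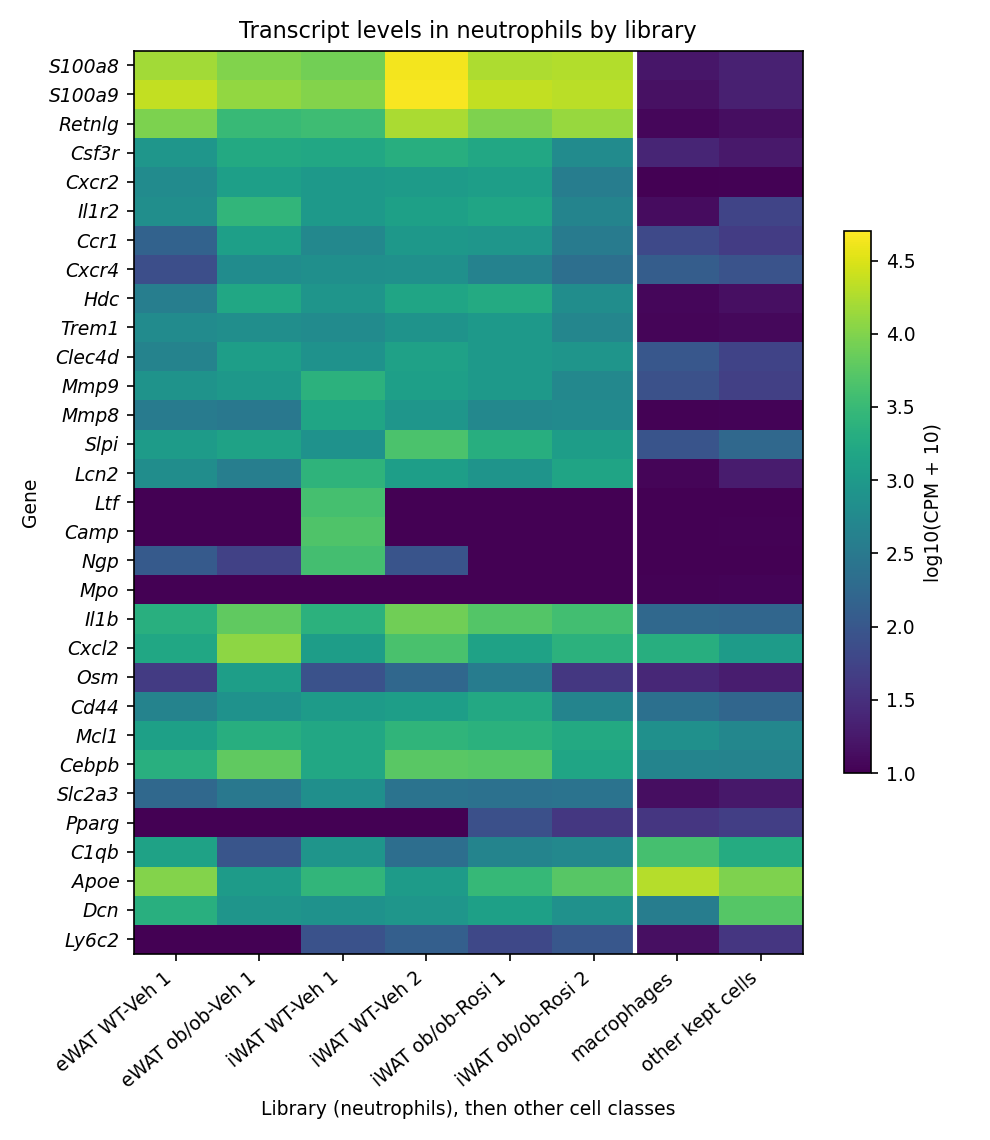
Transcript levels as log10(CPM + 10) in the neutrophils of the 6 libraries with 10 or more of them, left of the white line, and in macrophages and all other kept cells pooled over libraries, right of it. Ltf and Camp show in iWAT WT-Veh 1 only of these 6 libraries, where 1 cell holds them, Mpo is dark in every column, and Apoe and C1qb, genes of macrophages, show in neutrophils at lower levels than in macrophages.

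For tests of single genes, UMIs were summed over the neutrophils of each library, and a contrast needed 2 libraries per group. With 10 or more neutrophils per library this left the comparison of ob/ob-Rosi with WT-Veh in iWAT, and with 5 or more, 2 others. Since ob/ob-Rosi and WT-Veh mice differ in both genotype and treatment, genotype and Rosi cannot be told apart in that comparison. No gene test was run for ob/ob-Rosi against ob/ob-Veh in either depot, since the minimum of 5 neutrophils left out eWAT ob/ob-Rosi 1, with 2, and both iWAT ob/ob-Veh libraries, with 1 and 0. For the same reason none was run for a difference of an effect between depots. Calls are from edgeR's quasi-likelihood test, with a limit of 0.05 on the adjusted p and a minimum change of 1.1-fold.

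In iWAT, the genes that passed the test between ob/ob-Rosi and WT-Veh neutrophils were those of the 1 WT-Veh cell rich in granule transcripts. Of 776 genes tested, 0 were higher (0% called) and 4 were lower (0.515% called), Ltf, Camp, Ngp and Chil3. In the 2 WT-Veh libraries the UMIs of Ltf were 53 and 0, and in the ob/ob-Rosi libraries 0 and 0, and for Camp 63 and 0 against 0 and 0. Ngp had 52 and 2 against 0 and 0, and Chil3 33 and 6 against 1 and 4. Ltf, Camp and Ngp passed the filter on low counts through the 1 WT-Veh cell rich in granule transcripts. Their calls (edgeR adjusted p 4.04e-07 for each) thus rest on that cell and show no difference between the groups. Chil3 had a log2 change of -4.31 (SE 0.92, edgeR adjusted p 0.000655) and was not called with a replicate block in the model. Without the 2 cells rich in granule transcripts and 1 neutrophil of 10056 UMIs described with the eWAT comparison, edgeR called 0 genes, and DESeq2 called 0 with all cells. At an unadjusted p under 0.05, 17 genes were higher and 6 lower.

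Among genes that were not called in iWAT, named after their values were seen, Fabp5, a lipid chaperone of macrophages, had 302 and 123 CPM in WT-Veh and 492 and 1819 CPM in ob/ob-Rosi neutrophils. The groups do not overlap, but 53 of the 60 Fabp5 UMIs of iWAT ob/ob-Rosi 2 lay in 1 cell, and the change did not pass (log2 change 2.54, edgeR adjusted p 0.725). That library also had 130 of its 178 Apoe UMIs in 1 cell. Gadd45b, a stress-response gene, had 75.6 and 123 CPM against 475 and 364 CPM (log2 change 2.05, edgeR adjusted p 0.997). Retnlg stood at 3553 and 16712 CPM against 9705 and 13612 CPM, S100a9 at 10280 and 45372 against 22802 and 20554 CPM, and Il1b at 2343 and 8007 against 5098 and 3759 CPM, and in all 3 the WT-Veh libraries lie on both sides of the ob/ob-Rosi libraries. Of the 776 genes, 11.3% were higher and 10.8% lower in both ob/ob-Rosi libraries than in both WT-Veh libraries.

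By list, the 4 called genes were all secondary granule genes. No median is given for that list, since Ltf, Camp and Ngp passed the filter on low counts through the 1 WT-Veh cell that holds most of their UMIs. No gene of the other lists was called, apart from Chil3, which the monocyte markers also hold. Beside 0.01 over all genes tested, medians were -0.44 over 7 genes of the gelatinase and late granule list and -0.08 over 7 cytokines and chemokines. They were 0.87 over 9 NF-kB targets, 0.06 over 10 immediate early genes and -0.86 over 3 survival genes. Over 5 genes of iron storage and tissue neutrophils the median was 0.61, and over 77 ribosomal protein genes it was 0.09. The chemoattractant and cytokine receptors are left without a median, since their list holds the rule genes Csf3r and Cxcr2. Over 5 PPAR and lipid genes the median was 1.16, with 4 higher and 1 lower and 3 of 5 (Fabp4, Fabp5 and Cd36) higher without overlap, where 11.3% of all genes were. Fabp4 stood at 4384 and 2956 CPM in WT-Veh and 10390 and 5214 CPM in ob/ob-Rosi neutrophils (log2 change 1.16, edgeR adjusted p 0.997), with 241 of 591 and 92 of 172 UMIs of the ob/ob-Rosi libraries in 1 cell each, and at 9946 and 12644 against 17365 and 7934 CPM in the other kept cells of these libraries. Without the cell with the most UMIs of the gene in each library, a step chosen after seeing the data, Fabp4 stood at 3901 and 2545 against 6604 and 2576 CPM and the groups overlapped, while Cd36 stood at 328 and 170 against 642 and 483 CPM. Of the NF-kB targets 8 were higher and 1 lower, and 4 of 9 were higher without overlap, where 11.3% of all genes were. The macrophage markers, counted as a measure of other cells' RNA, had a median of 1.21, with 4 of 5 higher without overlap, and their part in the other changes was not tested.

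In eWAT, with 27 and 7 WT-Veh neutrophils against 13 and 6 in ob/ob-Veh, no gene was called among 817 (0% called in either direction, the smallest edgeR adjusted p 0.390), and DESeq2 called 0. At an unadjusted p under 0.05, 36 genes were higher and 30 lower in ob/ob-Veh. Without overlap between the groups, 16.6% of genes were higher and 21.9% lower. The single genes named for this comparison and for that of the depots were chosen after their values were seen.

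Cytokine and survival genes were among those with higher values in ob/ob-Veh. Osm, oncostatin M, an interleukin-6 family cytokine, had 33.6 and 0 CPM in WT-Veh neutrophils and 1175 and 462 CPM in ob/ob-Veh, so the groups do not overlap (log2 change 4.71, SE 1.28, edgeR unadjusted p 0.00123, adjusted p 0.390). That is 36 UMIs against 1, a ratio per UMI sequenced of 32.5 with an exact counting interval of 5.47 to 1318. The interval covers counting error only and leaves out the spread between cells and between mice. The Osm UMIs came from 4 of 13 and 4 of 6 ob/ob-Veh neutrophils, against 1 of 27 and 0 of 7 in WT-Veh. Pim1, a kinase downstream of cytokine receptors, stood at 369 and 814 CPM in WT-Veh and 3105 and 1269 CPM in ob/ob-Veh. Hcar2 stood at 235 and 542 CPM against 2433 and 635 CPM, and Ccrl2, a chemerin-binding receptor, at 235 and 0 against 2517 and 462 CPM. In all 3 the ob/ob-Veh libraries lie above both WT-Veh libraries, with log2 changes of 2.10, 2.22 and 3.09 and edgeR adjusted p of 0.468, 0.465 and 0.408. With 1 library left out the log2 change of Osm ranged from 4.25 (without WT-Veh 2) to 7.33 (without WT-Veh 1, which leaves WT-Veh at 0 UMIs), that of Pim1 from 1.45 to 2.52, that of Hcar2 from 1.09 to 2.80 and that of Ccrl2 from 1.52 to 8.16, the last 3 lowest without ob/ob-Veh 1, where Osm did not pass the filter on low counts. In ob/ob-Veh 2, 8 of the 11 Hcar2 UMIs and 5 of the 8 Ccrl2 UMIs lay in 1 cell.

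Values of some chemokine receptors were higher as well. Cxcr4, which holds neutrophils in the marrow and rises on aged ones, had 67.2 and 136 CPM in WT-Veh and 629 and 231 CPM in ob/ob-Veh neutrophils, 3 UMIs against 19 (ratio 5.72, exact counting interval 1.68 to 30.2, log2 change 2.31, edgeR adjusted p 0.547, and 1.52 without ob/ob-Veh 1). This interval too leaves out the spread between cells and between mice. Ccr1 had 134 and 407 against 1217 and 577 CPM (log2 change 2.07, edgeR adjusted p 0.560). Cxcr2, which the rule uses, had 604 and 1085 CPM against 1217 and 173 CPM and did not separate the groups. No median is given over the receptor list, which holds the rule genes Csf3r and Cxcr2. The cytokines and chemokines are left out too, since they include Osm, which did not pass the filter on low counts without ob/ob-Veh 1. Beside 0.03 over all genes, the median log2 change was 1.44 over 9 NF-kB targets (2 higher without overlap, with 5 higher and 4 lower in all), 1.09 over 10 immediate early genes (4, with 1 lower) and 2.10 over 3 survival genes (2), where 16.6% of all genes were higher without overlap. The whole NF-kB list summed to 3862 and 3933 CPM in WT-Veh and 9859 and 2769 CPM in ob/ob-Veh neutrophils, so the groups overlap. The whole survival list also overlaps, at 2250 and 3933 against 6083 and 3865 CPM. That of immediate early genes does not, at 8933 and 10578 against 28067 and 11712 CPM. In each of these lists ob/ob-Veh 1 had the highest sum. In the other direction the median was -1.39 over 5 genes of iron storage and tissue neutrophils. Of these 3 (Ftl1, Ctsb and Cd63) were lower without overlap, where 21.9% of all genes were. That list summed to 34259 CPM in macrophages and 20380 CPM in neutrophils. In the other kept cells it summed to 30935 and 27754 CPM in WT-Veh and 9698 and 11157 CPM in ob/ob-Veh. The part of other cells' RNA in the list was not tested. Ltf and Camp had no UMI in eWAT neutrophils.

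Cxcl2 rested on 1 library. It stood at 1612 and 2170 CPM in WT-Veh, 11747 CPM in ob/ob-Veh 1 and 981 CPM in ob/ob-Veh 2, and 93 of the 280 UMIs of ob/ob-Veh 1 lay in 1 cell. Without ob/ob-Veh 1 its log2 change was -0.71. Fos stood at 806 and 1220 CPM against 3776 and 1673 CPM, and Egr1 at 1142 and 136 against 4447 and 750 CPM, of which Fos separates the groups and Egr1 does not. These are immediate early genes that tissue digestion also induces, and Egr1 was higher in the other kept cells of the ob/ob-Veh libraries as well, at 3045 and 2580 CPM against 733 and 1025 CPM in those of WT-Veh. The part of digestion in these levels was not tested. Osm in the other kept cells was at 16.1 and 8.70 CPM in WT-Veh and 9.75 and 8.55 CPM in ob/ob-Veh.

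Lyz2 and genes of macrophages had lower values in ob/ob-Veh. Lyz2, a lysozyme shared by neutrophils and macrophages, stood at 4735 and 2577 CPM in WT-Veh and 336 and 750 CPM in ob/ob-Veh (log2 change -2.72, edgeR adjusted p 0.408), and its log2 change ranged from -3.54 to -1.82 with 1 library left out, the latter without WT-Veh 1. The secondary granule list, which holds Lyz2, differed the same way in the other kept cells. It summed there to 7065 and 6757 CPM in WT-Veh and 1924 and 2578 CPM in ob/ob-Veh. The part of other cells' RNA in Lyz2 was not tested. Retnlg had 9403 and 14646 CPM in WT-Veh and 3105 and 1846 CPM in ob/ob-Veh neutrophils, while S100a8 had 15179 and 10306 against 9985 and 15404 CPM. Per 100 UMIs of S100a8 and S100a9, Retnlg had 24.5 and 52.4 UMIs in WT-Veh, 13.7 and 6.52 in ob/ob-Veh, and 19.0 to 34.6 in the 4 iWAT libraries with 10 or more neutrophils. Retnlg is part of the rule, so these levels are a description, with no test.

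C1qb, a complement gene of macrophages, stood at 1343 and 678 CPM in WT-Veh neutrophils and 84.0 and 57.7 CPM in ob/ob-Veh (log2 change -3.77, 45 UMIs against 3, edgeR adjusted p 0.390), and Apoe at 10377 and 3933 against 1049 and 1038 CPM (log2 change -2.78, edgeR adjusted p 0.408), with 119 of the 309 UMIs of WT-Veh 1 in 1 cell. With 1 library left out the log2 change of Apoe ranged from -3.49 to -1.50 and that of C1qb from -4.33 to -2.75, each nearest 0 without WT-Veh 1. The other kept cells of the same libraries differed the same way, with C1qb at 2863 and 2750 CPM in WT-Veh and 508 and 960 CPM in ob/ob-Veh. All 5 tested macrophage markers were lower in ob/ob-Veh neutrophils without overlap (median log2 change -2.62), where 21.9% of all genes were, and the part of macrophage RNA in the other changes was not tested. Of the ribosomal protein genes, 70 of 76 were lower, 41 of them without overlap (median log2 change -0.66), and their sum was 10.7% and 10.2% of neutrophil UMIs in WT-Veh against 4.41% and 8.21% in ob/ob-Veh. The other kept cells of the same libraries differed in the same direction, at 15.2% and 15.2% against 12.1% and 11.9%.

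1 ob/ob-Veh cell carried RNA of another lineage. It had 10056 UMIs, the most of any neutrophil, and held 13 UMIs of S100a8 and S100a9 with 134 of its library's 140 Dcn UMIs and 23 of 24 Upk3b UMIs, genes of fibroblasts and of the mesothelium. Without this cell and the 2 cells rich in secondary granule transcripts, an alternative added after seeing the data, 1 gene was called higher, Osm (log2 change 4.78, edgeR adjusted p 0.0232), and 3 lower, Mgp, Rpl15 and Ccl8. Osm did not pass the filter on low counts without eWAT ob/ob-Veh 1, a library of the group where it is high. Over the other edgeR and DESeq2 settings tried, Osm had adjusted p of 0.0732 to 0.880, the lowest without eWAT ob/ob-Veh 2, the library of the cell with 10056 UMIs. Without the library eWAT ob/ob-Veh 1, 12 genes were called higher, among them Upk3b and Krt19, of which that cell held 23 and 17 UMIs.

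**Figure D4:**
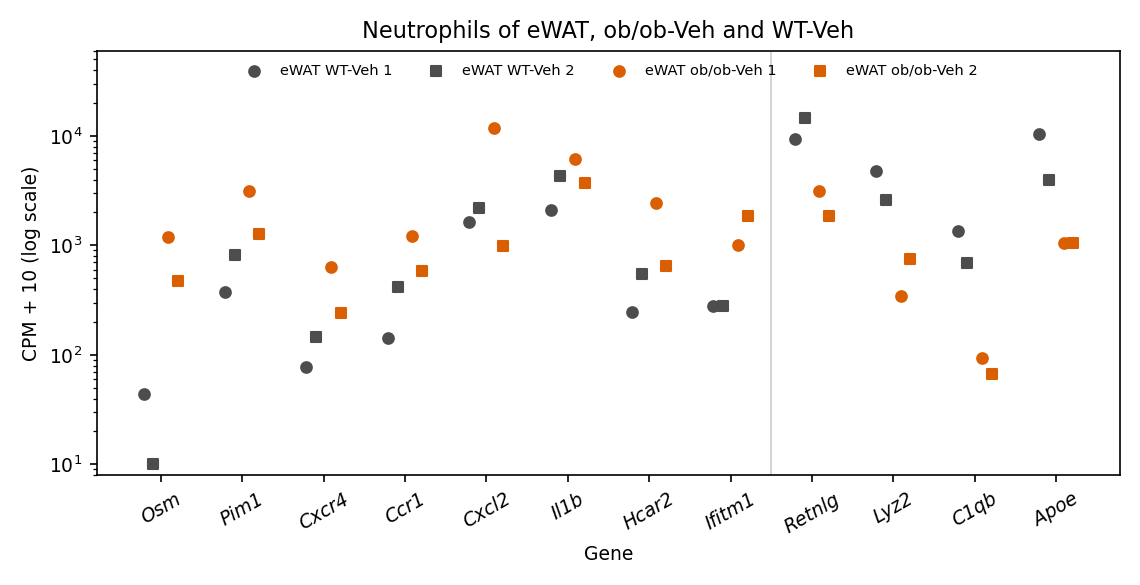
CPM + 10 on a log axis for 12 genes in the neutrophils of the 4 eWAT libraries of WT-Veh (grey, 27 and 7 cells) and ob/ob-Veh (orange, 13 and 6 cells), circles for replicate 1 and squares for replicate 2. Left of the line, both orange symbols lie above both grey ones except for Cxcl2 and Il1b, and right of it both lie below. The genes were chosen after their values were seen, and Retnlg is part of the rule. Of 817 genes tested, 16.6% were higher and 21.9% lower without overlap, and 0 were called.

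The depots were compared in WT-Veh mice, with 13 and 26 iWAT neutrophils against 27 and 7 in eWAT. No gene was called among 817 (0% called in either direction, the smallest edgeR adjusted p 0.148, DESeq2 0 calls), and at an unadjusted p under 0.05, 9 were higher and 19 lower in iWAT. With a replicate block in the model, edgeR called Mgp lower in iWAT (adjusted p 0.00252) and Camp, Ltf and Ngp higher, those mostly from a single iWAT cell. Cxcr4 stood at 680 and 698 CPM in iWAT and 67.2 and 136 CPM in eWAT neutrophils, without overlap (26 UMIs against 3, log2 change 2.92, edgeR unadjusted p 0.00601, adjusted p 0.614). Mmp8 stood at 1512 and 862 CPM against 336 and 136 CPM (log2 change 2.04, edgeR adjusted p 1, and 3.38 without eWAT WT-Veh 1). The 2 eWAT WT-Veh libraries take part in both this and the eWAT comparison, so the values of Cxcr4 in the 2 are not independent.

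The gene with the smallest p between depots was Mgp, matrix Gla protein of stromal and vascular cells, at 0 and 82.1 CPM in iWAT and 3291 and 1627 CPM in eWAT neutrophils (2 UMIs against 110, log2 change -5.52, edgeR adjusted p 0.148). It was called in 5 of 12 other settings, with adjusted p from 0.000694 to 1 by edgeR or DESeq2. The other kept cells of eWAT WT-Veh held it at 1905 and 2333 CPM and those of iWAT WT-Veh at 95.1 and 130 CPM. Beside 0.13 over all genes, the median log2 change was 0.93 over 8 genes of the late granule list and 0.63 over 7 cytokines and chemokines. It was -1.42 over 5 genes of iron storage and tissue neutrophils, 3 of which were lower without overlap where 11.8% of all genes were. In other kept cells that list summed to 10421.5 and 19513 CPM in iWAT WT-Veh and 30935 and 27754 CPM in eWAT WT-Veh. The part of other cells' RNA in the list was not tested. The 5 tested macrophage markers had a median of -1.80. The receptors are left without a median, since their list holds the rule genes Csf3r and Cxcr2. The labels name no batch, and per the study's methods all libraries shared a batch of processing and sequencing, although Gm42418 split by replicate number.

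The groups without a gene test had few neutrophils, whose counts are given for the record. The 2 and 5 eWAT ob/ob-Rosi neutrophils held 36 and 109 UMIs of S100a8, 18 and 51 of Retnlg, 5 and 28 of Il1b and 1 and 37 of Cxcl2, in 1698 and 4826 UMIs in all. The single iWAT ob/ob-Veh neutrophil had 804 UMIs, 8.58% of them mitochondrial, with 13 of S100a8 and S100a9, 3 of Retnlg and 0 of Il1b and Cxcl2.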

How the data were processed

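UMI counts per gene and barcode were deposited by the authors for 12 libraries (31053 genes). The submitters' processing notes name bcl2fastq 2.19.1.403, Cell Ranger 3.0.2 and the mouse build mm10. The methods name no doublet caller or correction for free RNA. Doublets were kept and none were called here, although barcodes with UMIs of Adgre1, Pdgfra or Cd3 genes were left out by the rule. The members and gene lists were chosen with earlier results of these data known. Barcodes with 700 to 22000 UMIs, 200 to 6000 genes and under 25% mitochondrial UMIs were kept, and CPM was computed from summed UMIs.

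Shares were compared on log2 of (neutrophils + 0.5) over (kept cells + 1) by exact permutation of libraries (scipy 1.17.1), with Benjamini-Hochberg adjustment. UMIs were summed over the neutrophils of each library and tested with edgeR 4.0.16 (quasi-likelihood, TMM, filterByExpr) in 1 fit of all libraries with at least 10 neutrophils, or at least 5 where a group had fewer than 2 such libraries. The lower minimum was planned as an alternative and served as the main setting for those comparisons. DESeq2 1.42.0 was an alternative. The scripts were tested on simulated counts. Named genes were those of the rule and the lists, the 20 with the highest ratio to other kept cells, and called genes. Others are said to be chosen after their values were seen. Intervals are exact binomial, at 95%. Libraries, 2 per group, are labelled biological replicates. Some genes are not reported here.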

Additional observations from a re-analysis of the deposited data

Results flagged for a closer look

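The neutrophil share of ob/ob-Rosi lay on opposite sides of that of ob/ob-Veh in the 2 depots, a difference that did not pass its test. The log2 difference was -1.55 in eWAT, where both ob/ob-Rosi libraries lay below both ob/ob-Veh libraries (-0.70 with the minimum of 700 UMIs and both upper limits lifted, where the libraries overlap), and 4.20 in iWAT, where both lay above. The difference of the 2 (iWAT minus eWAT) was 5.75 on the log2 scale, with an exact permutation p = 0.0556, the smallest the 36 arrangements allow, and 0.167 after adjustment over 3 such tests. It rests on 7 and 19 neutrophils in eWAT and on 59 and 1 in iWAT, with 0.5 added to every count, also to the 0 of iWAT ob/ob-Veh 2.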

How the results depend on the processing

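For 9 of the 10 share comparisons the smallest p the design allows is above 0.05, so their p-values say nothing about stability and only directions are compared. The direction of the iWAT against eWAT difference (-0.23 on the log2 scale) was opposite at an S100a8 and S100a9 minimum of 5 (0.16) and without cells carrying other lineage genes (0.80), and it ranged from -0.52 to 0.068 when 1 library was left out (0.068 without iWAT WT-Veh 1, 0.056 without iWAT ob/ob-Rosi 2 and 0.037 without iWAT ob/ob-Veh 2). Removing cells with other lineage genes, which left 21 neutrophils, also turned ob/ob-Veh against WT-Veh in eWAT (1.37), ob/ob-Rosi against ob/ob-Veh over both depots (-0.014), and the comparison of ob/ob-Rosi with WT-Veh in eWAT (0.79) and iWAT (-2.14). With 1 library left out, ob/ob-Veh against WT-Veh in eWAT ranged from -0.81 to 0.0015 (the latter without eWAT ob/ob-Veh 2). In iWAT the comparison of ob/ob-Rosi with WT-Veh ranged from -0.28 (without iWAT WT-Veh 1) to 1.48, with -0.25 without iWAT ob/ob-Rosi 1. The other 118 values of shares kept their direction. With the minimum of 700 UMIs and both upper limits lifted, though, ob/ob-Rosi against ob/ob-Veh in eWAT moved from -1.55 to -0.70.

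For iWAT ob/ob-Rosi against WT-Veh, edgeR's 4 calls became 0 with DESeq2, 0 with cells thinned to 700 UMIs, 0 without the 3 neutrophils described above (an alternative added after seeing the data) and 0 to 5 with 1 library left out (0 without iWAT ob/ob-Rosi 1, and 1, Gm42418, without iWAT WT-Veh 1). For eWAT ob/ob-Veh against WT-Veh, 0 became 4 without the 3 neutrophils and 0 to 12 with 1 library left out. For WT-Veh iWAT against eWAT, 0 became 3 with no filter on low counts, 1 when thinned, 2 without the 3 neutrophils and 0 to 3 with 1 library left out (3 without eWAT WT-Veh 2 and 3 without iWAT WT-Veh 2). The causes were not tested. Of named genes, Lrg1 in iWAT ranged from -4.26 to 0.46 (the latter without iWAT WT-Veh 2) and Cxcl2 in eWAT from -0.71 (without eWAT ob/ob-Veh 1) to 2.65.

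The labels do not say what a replicate number shares. Between groups, deviations of same-numbered libraries correlated above 0.1 over genes in 12 of 15 pairs of groups in other kept cells (range -0.139 to 0.649) and in 2 of 6 in neutrophils (-0.127 to 0.338), and Gm42418 followed the number, but not every pair passed 0.1, so the numbers were not taken to pair the libraries. When a replicate block was added to the model, edgeR called 3 genes for ob/ob-Rosi against WT-Veh in iWAT (Ltf, Camp and Ngp, but not Chil3) and 0 in eWAT. It called 4 between the depots in WT-Veh, where it called 0 without the block: Mgp, lower in iWAT (adjusted p 0.00252), and Camp, Ltf and Ngp, higher (0.000155 to 0.00731), mostly from 1 iWAT cell. Crossing the numbers of eWAT ob/ob-Veh gave 0 calls. Gene tests with at least 20 neutrophils per library, an S100a8 and S100a9 minimum of 20 or no UMI of other lineage genes were not run, because a group lost its 2 libraries. Depth limits every gene result here, since the tests rest on 5 to 38 neutrophils per library and a median of 1027 UMIs per cell.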
